A study of Drosophila melanogaster with 2 samples.

Results

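The regions described here are candidate binding places of a Gsc-eGFP fusion protein, as ranked by the authors. They lie close to the start of a noncoding RNA gene and away from the start of any protein-coding gene. Most of them did not pass the authors' threshold. They were chosen by position. The summit of a region, its point of highest signal, had to lie within 500 bp of the annotated start of a transcript of a noncoding gene (long noncoding, antisense and similar RNAs, or microRNA hairpins) and more than 500 bp from every protein-coding start. Of 117578 regions that the authors ranked on the 7 chromosome arms, 2023 met this rule, and 34 of these were also in the authors' thresholded list, which held 1470 regions on the arms. The samples are 1 group of 2 biological replicates, whole Drosophila melanogaster embryos of 0 to 24 h from a transgenic strain labelled Gsc-GFP, carrying an insertion that targets Gsc. Chromatin was sonicated to fragments of 200 to 800 bp, precipitated with an antibody against GFP and sequenced (ChIP-seq). The labels do not say from which regulatory sequence the fusion protein was expressed, and whole embryos of a day of development mix all tissues and stages. There is no second condition, a control library was not analysed here, and nothing in the files measures transcription.

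Gsc is the fly homologue of Goosecoid, a homeodomain protein of the paired-like type that binds DNA and is known mostly as a repressor in the head and foregut. Its homeodomain belongs to the class with a lysine in the recognition helix, whose core word is TAATCC. Long noncoding RNAs are transcribed and processed much as messenger RNAs but code for no known protein, and many are expressed in few cells. MicroRNAs are cut from hairpins inside longer transcripts, so the annotated start of a microRNA gene is the end of a hairpin and not a place where transcription begins. A mature microRNA finds its targets through its seed, bases 2 to 8.

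The 101 bases around the summit are shown for 10 thresholded regions: 5 of the 6 strongest, a neighbouring pair, the 2 tied to microRNA hairpins other than those of lncRNA:CR31044, and the 1 region in coding sequence. They are given 5′ to 3′ on the plus strand of the Release 6 genome (dm6), and capitals mark any of 8 words, read on either strand. These are TAATCC of homeodomains like that of Gsc, TAATTA of most other homeodomains, GAGAG of the GAGA factor, CAGGTA of Zelda, TATCGATA of DREF, TATAAA of the TATA-binding protein, the initiator word TCAGT, and ACAGTG, which had stood out in an earlier look at these data. A and T make up over 60% of the bases in 9 of them, while the region in coding sequence, asRNA:CR45952, is rich in G and C.
lncRNA:CR44619, upstream region, chrX:12751361-12751461: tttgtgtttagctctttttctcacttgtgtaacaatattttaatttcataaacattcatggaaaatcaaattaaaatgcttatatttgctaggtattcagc
lncRNA:CR44619, downstream region, chrX:12752306-12752406: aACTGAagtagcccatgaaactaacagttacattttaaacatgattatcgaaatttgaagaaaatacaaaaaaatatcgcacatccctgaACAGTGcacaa
lncRNA:CR31044, region, chr3R:29214389-29214489: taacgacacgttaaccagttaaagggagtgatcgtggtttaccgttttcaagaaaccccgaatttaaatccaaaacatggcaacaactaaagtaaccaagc
asRNA:CR44429, region, chrX:15298405-15298505: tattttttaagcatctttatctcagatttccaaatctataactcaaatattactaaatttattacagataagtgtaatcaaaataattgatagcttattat
lncRNA:CR46036, region, chr3R:17700549-17700649: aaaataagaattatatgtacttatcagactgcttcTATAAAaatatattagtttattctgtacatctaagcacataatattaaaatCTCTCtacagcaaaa
lncRNA:CR44867, region, chr2L:15911257-15911357: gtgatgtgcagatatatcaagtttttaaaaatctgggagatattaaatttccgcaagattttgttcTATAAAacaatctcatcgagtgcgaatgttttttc
lncRNA:CR44868, region, chr2L:15912130-15912230: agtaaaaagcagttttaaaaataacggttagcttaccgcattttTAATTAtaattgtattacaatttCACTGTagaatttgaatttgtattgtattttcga
lncRNA:CR43626, region, chr3L:3250226-3250326: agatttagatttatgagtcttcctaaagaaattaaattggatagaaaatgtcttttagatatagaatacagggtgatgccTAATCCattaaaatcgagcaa
mir-2491, region, chrX:22833677-22833777: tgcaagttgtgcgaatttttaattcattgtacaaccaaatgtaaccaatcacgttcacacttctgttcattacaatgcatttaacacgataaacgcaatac
asRNA:CR45952, region, chr3L:21302623-21302723: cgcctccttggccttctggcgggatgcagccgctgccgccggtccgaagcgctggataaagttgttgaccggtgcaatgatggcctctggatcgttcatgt

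The microRNAs tied to these regions are given with the seed in capitals, read from the Release 6 genome at the positions of the RefSeq annotation. The mature 3p products of mir-279 and mir-996 have the same seed, GACTAGA, and no other seed was shared among the 4 genes.
mir-279 3p, chr3R:29215651-29215672, plus strand: tGACTAGAtccacactcattaa
mir-996 3p, chr3R:29217244-29217265, plus strand: tGACTAGAtttcatgctcgtct
mir-279 5p, chr3R:29215606-29215631, plus strand: aGTGGGTGggggtccagtgtttcaca
mir-996 5p, chr3R:29217202-29217223, plus strand: gCGAACATggatctagtgcacg
mir-282 5p, chr3L:3251038-3251061, plus strand: tAGCCTCTactaggctttgtctgt
mir-282 3p, chr3L:3251081-3251102, plus strand: aCATAGCCtataagaggttagg
mir-2491 5p, chrX:22833545-22833566, minus strand: cGCTGTTGcctttgcagttgct
mir-2491 3p, chrX:22833472-22833489, minus strand: cAACAACAgcagcagcaa

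Regions at noncoding starts passed the authors' threshold more often than regions away from all starts, and less often than regions at protein-coding starts. Of the 2023 regions, 34 were in the thresholded list (1.68%, 95% Wilson interval 1.21% to 2.34%), against 1.25% of all ranked regions on the arms (1.19% to 1.32%). Away from both kinds of start 904 of 105266 regions passed (0.859%, 0.805% to 0.916%), and at protein-coding starts 532 of 10289 (5.17%, 4.76% to 5.62%). The interval for noncoding starts thus lay above that of regions away from starts and below that of coding starts, and it included part of the interval over all regions. These intervals, here and below, cover counting error over regions only, since regions of 1 genome are not replicates and the files hold no read counts. Ranked regions that overlap each other are counted separately in them. Each replicate gave a like share: 30 of 1797 regions at noncoding starts (1.67%) against 1.04% of all regions in the list of replicate 1, and 29 of 1715 (1.69%) against 0.866% in that of replicate 2.

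The difference from regions away from starts was also seen within introns and within intergenic sequence. In introns of coding genes 11 of 474 regions at noncoding starts passed (2.32%, 1.3% to 4.11%), against 1.14% of intronic regions away from starts (1.04% to 1.24%). Between coding genes 22 of 1311 passed (1.68%, 1.11% to 2.53%), against 0.929% (0.836% to 1.03%). A further 311 regions lay within 500 bp of a start of each kind and were left out by the rule. Of these, 19 were thresholded (6.11%), a share close to that of coding starts.

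The share of regions that passed did not peak next to the noncoding start. Within 100 bp of a noncoding start 4 of 387 regions passed (1.03%, 0.403% to 2.63%), and the bins of 100 bp out to 500 bp gave 1.89%, 1.69%, 1.98% and 1.77%, with overlapping intervals. From 501 to 1000 bp it was 1.53% and from 1001 to 2000 bp 1.25%, again outside 500 bp of coding starts. Around coding starts the share was 6.69% within 100 bp and 9.95% from 101 to 200 bp, and lower in each bin further out, with 2.05% from 401 to 500 bp. The intervals of the 2 kinds of start did not overlap in the first 2 bins and overlapped in those from 201 bp outward.

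**Figure D1:**
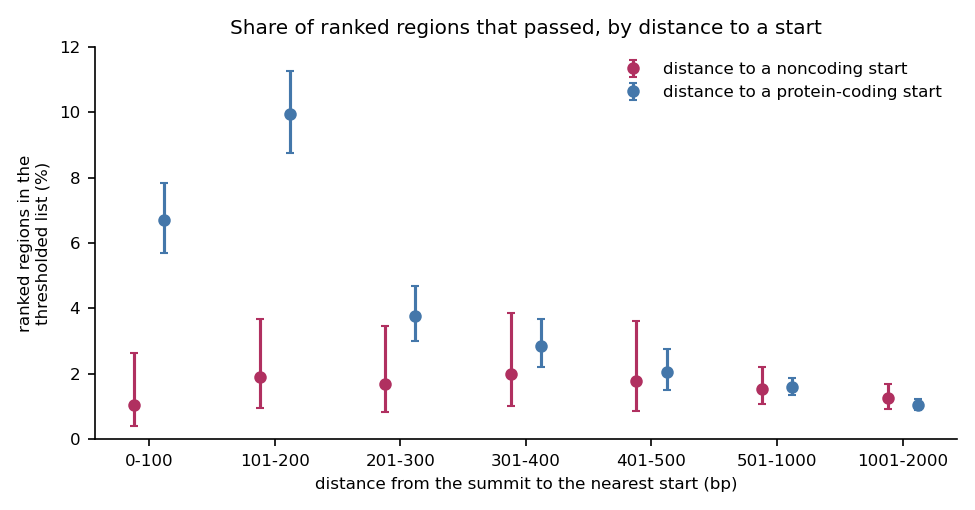
Percent of ranked regions that are in the thresholded list, by distance in bp from the summit to the nearest noncoding start (red, regions over 500 bp from coding starts) or the nearest protein-coding start (blue). Bars are 95% Wilson intervals over regions. The red points stay between 1.03% and 1.98% in all bins, while the blue points reach 9.95% from 101 to 200 bp.

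Base composition moved with these shares. Within 50 bp of the summit the median GC content was 31.7% in the 34 thresholded regions at noncoding starts and 48.5% in the 1989 others at such starts. It was 30.7% in thresholded regions at coding starts and 36.6% in thresholded regions away from both. Among regions at noncoding starts with GC under 30%, 14 of 73 passed (19.2%, 11.8% to 29.7%), and 9 of 113 did from 30% to 35% (7.96%). No region passed at noncoding starts with GC from 45% to 50% (0 of 474, 95% upper bound 0.804%) or from 50% to 55% (0 of 433, 0.879%). In these bins 1.18% and 0.574% of regions at coding starts passed, and 0.330% and 0.334% of regions away from both. The shares away from both lay under the upper bounds for noncoding starts. In the bin under 30% GC, regions at noncoding starts passed at 19.2%, against 39.9% at coding starts (36.2% to 43.7%) and 6.78% away from both (6.004% to 7.65%). From 30% to 35% the share at noncoding starts was 7.96% (4.25% to 14.4%), against 19.0% at coding starts and 2.76% away from both. The order of the 3 classes was the same in the bins under 45% GC as over all regions. Their intervals were apart only under 35% GC. From 35% to 40%, 5 of 209 passed at noncoding starts (1.03% to 5.48%), overlapping regions away from both (1.01% to 1.40%). From 40% to 45%, 4 of 332 passed (0.470% to 3.06%), overlapping both other classes. From 55% GC upward the order differed. There 2 of 389 passed at noncoding starts (0.514%, 0.141% to 1.85%). The share was 0.350% at coding starts and 0.5003% away from both, and the intervals overlapped.

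**Figure D2:**
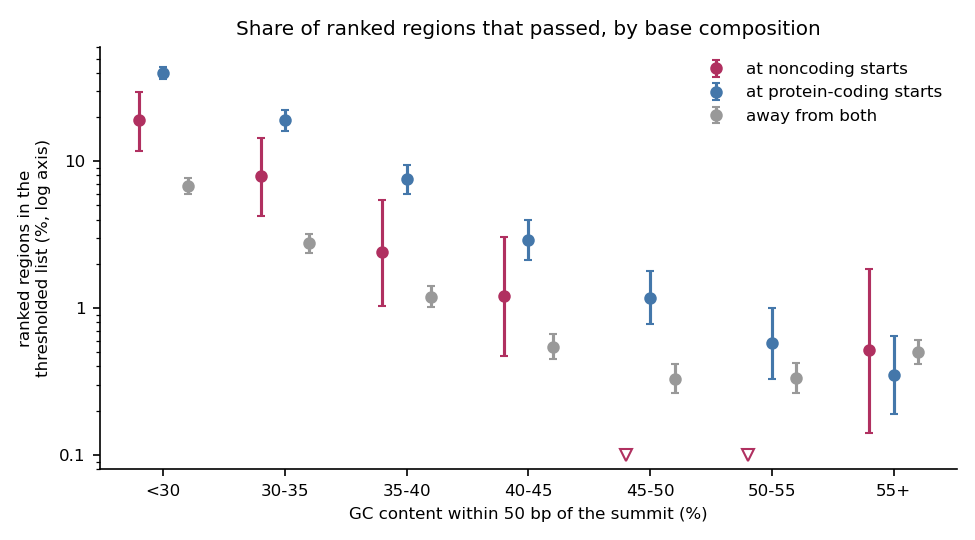
Percent of ranked regions that are in the thresholded list (log axis), by GC content within 50 bp of the summit, for regions at noncoding starts (red), at protein-coding starts (blue) and away from both (grey). Bars are 95% Wilson intervals, and open triangles mark bins in which no region passed. In every bin under 45% GC the red points lie between the blue and the grey, for example at 19.2% against 39.9% and 6.78% under 30% GC. From 35% to 45% GC the red bars overlap the grey ones.

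The signal value is the authors' measure of strength, in a unit that no source used here states. It was about as high in thresholded regions at noncoding starts as in those at coding starts. Its median over the 34 regions was 126 (quartiles 89.7 and 209, range 53.4 to 506), against 127 at coding starts and 86.5 away from both. Regions at noncoding starts that did not pass had a median of 20.7, so these values describe regions already set apart by the threshold. Of the 34, which made up 2.31% of the thresholded list on the arms, 4 were among its 100 strongest regions there. These 4 included both regions of lncRNA:CR44619. Of the 34 regions, 23 had the width of 336 bp common in the list, and the 11 narrower ones, down to 103 bp, all had a signal of at least 164.

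**Figure D3:**
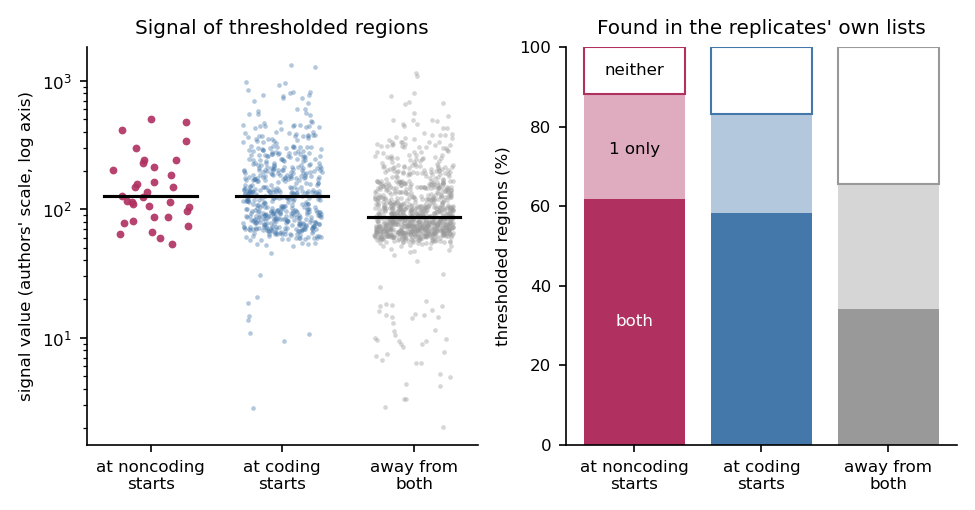
Left, signal value on the authors' scale (log axis) of thresholded regions at noncoding starts (34, red), at coding starts (532, blue) and away from both (904, grey), with the median as a black line. Right, percent of the same regions found in both replicates' own thresholded lists (full colour), in 1 only (pale) and in neither (white): both held 61.8%, 58.3% and 34.2%.

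Most of the 34 regions were also in each replicate's own thresholded list. The list that they were taken from was made from the same replicates, so this overlap is partly built in. The classes compared here were not matched for signal. Both replicates' own thresholded lists held 21 of them (61.8%, 45.04% to 76.1%), against 58.3% at coding starts (54.0% to 62.4%) and 34.2% away from both (31.2% to 37.3%). Replicate 1 alone held 5 more, replicate 2 alone 4, and 4 were in neither list. The regions missing from both were those of asRNA:CR45952, lncRNA:CR43238, lncRNA:CR44380 and lncRNA:CR44527, which were also the 4 weakest. In 32 of the 34 a signal could be read from each replicate's own ranked list. It was higher in replicate 1 in 25 of them and in replicate 2 in 7, with a median log2 ratio of replicate 2 to replicate 1 of -0.27 (SD 0.46 over regions), against -0.24 over all thresholded regions on the arms (SD 0.61). Across these 32 regions Spearman's rho between the replicates was 0.881 and Pearson's r of the log2 signal 0.870, given as a description, since the regions share both libraries and had all passed the threshold.

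The replicates differed more than 2-fold at 3 of the 32 regions. Over all thresholded regions on the arms with both values they did so at 131 of 1409, a like share. At mir-2491, a microRNA gene, replicate 1 gave 24.6 and replicate 2 gave 52.2 (38.4 ± 19.5, SD, n = 2), a log2 ratio of 1.09. At lncRNA:CR44527 the values were 42.0 and 17.7 (29.9 ± 17.2, SD, n = 2), and at lncRNA:CR43949 56.5 and 24.1 (40.3 ± 22.9, SD, n = 2). These are among the 6 weakest regions by the list from both replicates. Of the other regions, the log2 ratio was farthest from 0 at lncRNA:CR45668, at -0.76, where replicate 1 gave 121 and replicate 2 71.9. On the other side, lncRNA:CR42657 (48.0 in replicate 1, 62.4 in replicate 2) and lncRNA:CR45541 (61.3 and 77.4) followed mir-2491 in the ratio of replicate 2 to replicate 1. The region of lncRNA:CR44478 had no value in replicate 1 and 50.1 in replicate 2, and that of lncRNA:CR44366 had 71.9 in replicate 1 and no value in replicate 2.

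**Figure D4:**
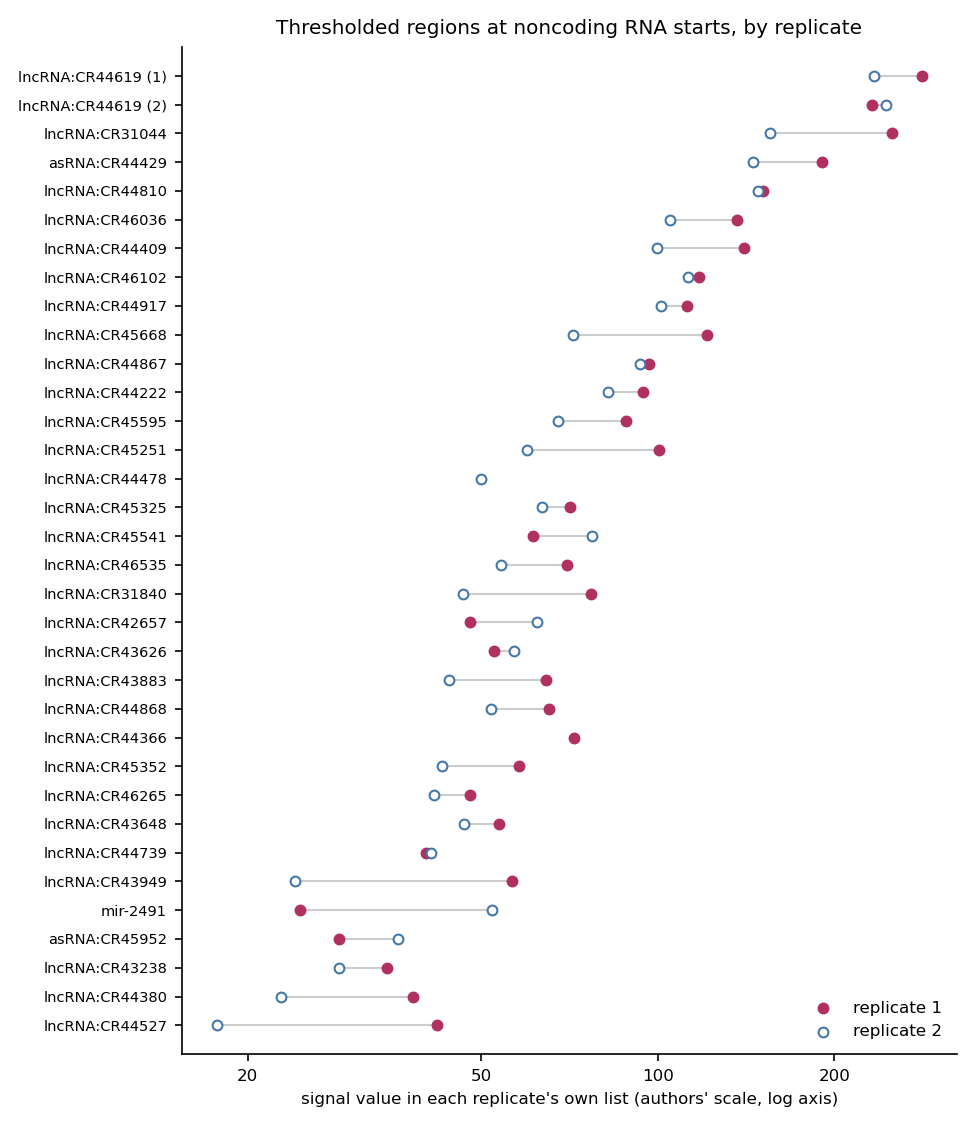
Signal value (authors' scale, log axis) of each of the 34 thresholded regions at noncoding starts in the own ranked list of replicate 1 (filled) and replicate 2 (open), ordered by the signal in the list from both replicates. A grey line joins the values of 1 region. Replicate 1 is higher in 25 of the 32 regions with both values.

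The strongest regions lay on either side of the start of lncRNA:CR44619, a long noncoding RNA gene on X (12751867 to 12754571, plus strand). The upstream region had its summit 456 bp before the start, with a signal of 506 in the list from both replicates, 282 in replicate 1 and 233 in replicate 2 (258 ± 34.4, SD, n = 2). The downstream region had its summit 489 bp after it, with a signal of 475, and 232 and 245 in the replicates (238 ± 9.11, SD, n = 2). The summits were 5094 and 6039 bp from the nearest coding start, that of CG4004, and 945 bp from each other. They lay close to a second long noncoding RNA gene, lncRNA:Vinr, which in flies takes part in antiviral immune signalling. The start of lncRNA:Vinr was 1517 bp from the nearest thresholded summit and had no ranked region within 500 bp.

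The next strongest region lay at lncRNA:CR31044 on 3R (29214562 to 29219667, plus strand), the long transcript that holds the hairpins of mir-279 and mir-996. In flies mir-279 is known to restrict the formation of CO2-sensing neurons. The summit was 123 bp upstream of the start of the long transcript, with a signal of 414, 251 in replicate 1 and 156 in replicate 2 (203 ± 67.1, SD, n = 2). It was 1146 bp from the mir-279 hairpin and 2745 bp from that of mir-996, whose shared seed is shown above, and 5733 bp from the nearest coding start, that of eEF1gamma, a translation elongation factor gene. The thresholded list held 2 further summits within 10 kb. Neither hairpin had a ranked region of its own within 500 bp.

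A second host of a microRNA, lncRNA:CR43626 on 3L (3249340 to 3254504, plus strand), had a region 318 bp upstream of 1 of its starts and 746 bp from the mir-282 hairpin. Its signal was 113, with 52.7 in replicate 1 and 57.0 in replicate 2 (54.8 ± 3.01, SD, n = 2). It was the 1 thresholded region at a noncoding start with the word TAATCC within 50 bp of the summit. Its sequence, shown above, holds that word near the right edge.

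Introns of coding genes held 11 of the 34 regions. In 9 of these 11 the coding gene ran on the strand opposite to the noncoding gene, in 1 on the same strand, and in 1, that of mir-2491, there were coding genes on both strands. Among the 463 intronic regions at noncoding starts that were not thresholded, 271 had a host gene on the opposite strand only, or 58.5%. The 11 regions, which include a neighbouring pair in beat-Ib, are too few to tell these shares apart. The strongest intronic region lay in gce, which codes for a bHLH-PAS receptor of juvenile hormone, 238 bp upstream of asRNA:CR44429 and 554 bp from the gce start (X, 15298334 to 15298536). Its signal was 339, with 191 in replicate 1 and 145 in replicate 2 (168 ± 32.3, SD, n = 2). It was also the thresholded region at a noncoding start nearest to any coding start.

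The other intronic regions lay in host genes of varied function. The region of lncRNA:CR46036 (signal 243) lay in osa, which codes for a subunit of the Brahma chromatin remodelling complex, with 137 in replicate 1 and 105 in replicate 2 (121 ± 22.4, SD, n = 2). In Dif, which codes for an NF-kappaB-type factor of the immune response, the region of lncRNA:CR44409 had a signal of 240, with 140 and 99.9 (120.1 ± 28.5, SD, n = 2). In LpR2, a lipophorin receptor gene, the region of lncRNA:CR46102 had a signal of 229, with 118 and 113 in the replicates (115.3 ± 3.37, SD, n = 2). At lncRNA:CR44222 a region with a signal of 164 was in kis, which codes for a CHD-type chromatin remodeller, 47 bp from the noncoding start. That of lncRNA:CR44478 (148) was in Socs36E, an inhibitor of JAK/STAT signalling, and that of lncRNA:CR46265 (87.4) in ChAT, which codes for the enzyme that makes acetylcholine. ChAT was the 1 host on the same strand.

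The gene beat-Ib, of a family of immunoglobulin-type proteins of axon guidance, held a pair of regions in intronic sequence. They lay 384 bp upstream of lncRNA:CR44867, with a signal of 185, and 378 bp upstream of lncRNA:CR44868, with a signal of 107, and their summits were 873 bp apart. The first had 96.6 in replicate 1 and 93.4 in replicate 2 (94.99 ± 2.24, SD, n = 2), and the second 65.2 and 52.0 (58.6 ± 9.35, SD, n = 2). The second was also within 500 bp of lncRNA:CR44867, so that lncRNA:CR44867 and lncRNA:CR44619 were the genes with 2 thresholded regions. No other noncoding gene had more than 1.

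Among the 22 regions between coding genes, the strongest after those of lncRNA:CR44619 and lncRNA:CR31044 was at lncRNA:CR44810 on 2R, whose nearest coding start, 4540 bp away, is that of slbo, a C/EBP-type factor of border cell migration. Its signal was 297, with 151 in replicate 1 and 148 in replicate 2 (149.9 ± 2.22, SD, n = 2). At lncRNA:CR44917 the region (signal 212) was the farthest from coding starts, at 30839 bp. At lncRNA:CR45668 the region (200.3) lay 662 bp from a start of Act5C, a cytoplasmic actin gene, and that of lncRNA:CR42657 (113) 653 bp from a start of nej, which codes for the acetyltransferase CBP. Over the 34 regions the nearest coding start was 2458.5 bp away in the median (554 to 30839 bp), and 5 were within 1000 bp of one, or 14.7%. Among the 1989 regions at noncoding starts that did not pass, it was 4579 bp away in the median, and 11.2% were within 1000 bp.

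The remaining regions among the 25 strongest had signals from 96.9 to 159. They lay at lncRNA:CR45595 (159), lncRNA:CR45251 (149), lncRNA:CR45325 (137), lncRNA:CR45541 (128), lncRNA:CR46535 (125), lncRNA:CR31840 (117), lncRNA:CR43883 (110), lncRNA:CR44366 (103) and lncRNA:CR45352 (96.9). The regions of lncRNA:CR31840 and lncRNA:CR45352 were neighbours, with summits 1807 bp apart on 2L, and that of lncRNA:CR31840 was the nearest of all 34 to its start, at 20 bp. At lncRNA:CR45325 it was in introns of CG46429 and Sesn, a sestrin gene. That of lncRNA:CR45541 lay 1803 bp from a start of Hex-A, a hexokinase gene, in a stretch with 4 further thresholded summits within 10 kb. Another thresholded summit lay within 2 kb of 14 of the 34 regions (41.2%), against 22.9% over all thresholded regions on the arms. These 14 included pairs that count as each other's neighbours. They were those at lncRNA:CR44619, at lncRNA:CR44867 and lncRNA:CR44868, and at lncRNA:CR31840 and lncRNA:CR45352. The neighbour of the region of lncRNA:CR46265 was 199 bp away, less than that region's width of 336 bp. Such cases were counted in both shares. Within 10 kb the shares were 55.9% and 45.4%.

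Below these, the 9 weakest thresholded regions had signals from 53.4 to 87.4. Beside those of mir-2491 (73.9), lncRNA:CR46265, lncRNA:CR43949 (78.0), asRNA:CR45952 (66.0), lncRNA:CR43238 (64.5), lncRNA:CR44380 (59.6) and lncRNA:CR44527 (53.4), they lay at lncRNA:CR43648 (86.9) and lncRNA:CR44739 (80.4). The coding gene nearest to lncRNA:CR43949 is Notum, an enzyme that inactivates Wnt ligands, and the one nearest to lncRNA:CR44739 is tup, a LIM homeodomain factor, 18825 bp away. The region of asRNA:CR45952 was the 1 region in coding sequence, that of CG11309, and had a GC content of 61.4%.

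Around the annotated start, thresholded summits were about as frequent on either side. Along the noncoding gene 18 of 34 lay upstream of the start and 16 downstream, with a median distance of 253.5 bp (20 to 498 bp). These sides refer to 1 transcript start and do not separate sequence outside a gene from its body. The upstream summits of lncRNA:CR44810 and lncRNA:CR43626 lay inside their genes, upstream of an inner start. The downstream summit of lncRNA:CR44409 lay past the end of that short gene. Of all 2023 regions 853 were upstream, or 42.2%. Of the 10 strongest, 6 were upstream.

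**Figure D5:**
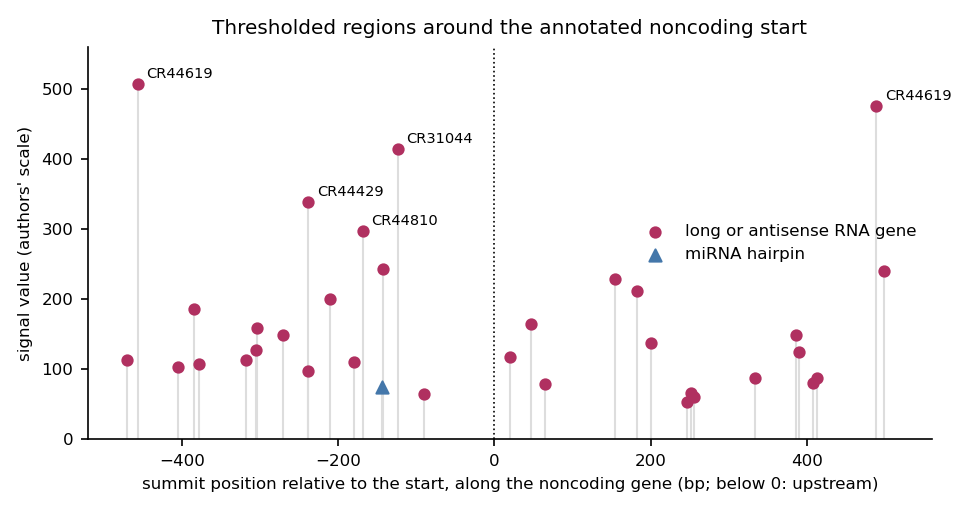
Signal value (authors' scale) of the 34 thresholded regions against the summit's position in bp along the noncoding gene, with the annotated start at 0 and upstream positions below 0. Circles are long or antisense RNA genes and the triangle is the microRNA hairpin; the 5 strongest are named. The 18 upstream and 16 downstream summits spread over the whole 500 bp on each side.

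By chromosome, X held 7 of the thresholded regions among 217 at noncoding starts there (3.23%), against 1.45% of all ranked regions on X. Arm 2L held 11 of 542 (2.03%, against 1.41%), 2R 4 of 312 (1.28%, against 1.24%), 3L 6 of 398 (1.51%, against 1.33%) and 3R 6 of 537 (1.12%, against 0.983%). The Y chromosome had 17 regions at noncoding starts, and 0 of them passed, against 0.828% of all ranked regions on Y, too few regions to show a share of that size. Chromosome 4 had no region at a noncoding start. No summit of the 34 lay in an annotated transposable element, against 1.29% of all thresholded regions on the arms. Here too the regions are too few to show a share of that size.

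Of 126 regions nearest to a hairpin or mature microRNA start, 1 passed (0.794%, 0.14% to 4.36%), against 33 of 1897 at long and other noncoding starts (1.74%, 1.24% to 2.43%), and these intervals overlap. The interval at microRNA starts also held the 1.25% of all ranked regions. The region that passed lay 144 bp upstream of mir-2491 on X, in introns of CG42346 and, on the other strand, of fog, which codes for the secreted signal folded gastrulation. It was in the thresholded list of replicate 2 and not in that of replicate 1, and not in the conservative list. The strongest regions at hairpins that did not pass were those of mir-2499 (56.7), mir-4914 (50.1), mir-959 (44.7), mir-4971 (43.5) and mir-4977 (43.0). The median signal was 18.2 over the 126 regions at microRNA starts and 21.1 over the 1897 others.

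Of all 2808 noncoding genes on the arms, 33 had a thresholded region by the rule and 1353 any ranked region, and the listed long noncoding RNAs are read against these counts. Of 15 named long noncoding RNAs 12 names matched the annotation, as 11 genes, since msa is a synonym of iab8. None of the 11 had a thresholded region by the rule, a count that the low share over all noncoding genes does not set apart. A ranked region was found by the rule at 3 of them: bxd and iab8, from the regulatory regions of the Hox cluster, and let7C, the host of let-7, mir-100 and mir-125. Their strongest regions had signals of 29.9, 34.6 and 21.5. The dosage compensation RNAs roX1 and roX2, the heat shock RNA Hsromega and the piRNA cluster transcript flam had no ranked region within 500 bp of a start.

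Over all 260 microRNA hairpin genes on the arms, 90 had a ranked region by the rule and 1, mir-2491, a thresholded one. The listed microRNAs had 0 thresholded regions, which so low a count overall does not set apart. None of the 3 Hox cluster microRNAs and none of the 9 genes listed with mir-309 had a ranked region by the rule. The mir-309 cluster is known for clearing maternal messenger RNAs in the early embryo. Of 32 microRNAs known from particular tissues or stages, 31 matched and 7 had one, the strongest at mir-278 with a signal of 40.6. Those of mir-133 and mir-92b had 31.6 and 30.6, and that of the neuronal mir-124 had 24.2. A thresholded summit lay 486 bp from mir-92a, within 500 bp of a coding start and so outside the rule. The growth microRNA bantam had a thresholded summit 2032 bp away and a ranked region of 14.5 by the rule.

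Of the words searched at the summits, TATAAA, the word of the TATA-binding protein, was the most frequent, in 6 of 34 (17.6%, 8.35% to 33.5%), against 6.49% of the other regions at noncoding starts, 19.6% of all thresholded regions and 6.56% of all ranked regions on the arms. These 6 were the regions of lncRNA:CR46036, lncRNA:CR44867, lncRNA:CR45595, lncRNA:CR46535, lncRNA:CR46265 and lncRNA:CR44739, with GC contents from 22.8% to 32.7%. ACAGTG was in 3 (8.82%, 3.05% to 23.0%), against 6.12% of all thresholded and 4.13% of all ranked regions. The initiator word TCAGT was also in 3 (8.82%), against 18.2% of all thresholded and 14.9% of all ranked regions. With 100 bp on either side it was in 35.3%, against 36.3% and 27.8%, so its place relative to all ranked regions turned with the window. The remaining words were in 1 or none. TAATCC was in 1 (2.94%), against 3.67% of all thresholded and 2.91% of all ranked regions. TAATTA was in 1, against 7.89% and 4.57%, and the GAGA factor word GAGAG in 1, against 8.57% and 12.4%. The Zelda word CAGGTA and the DREF word TATCGATA were in 0 of 34, against 2.25% and 0.144% of all ranked regions. With 100 bp on either side TAATTA was in 14.7% (6.45% to 30.1%), against 13.9% and 9.10%. Its place relative to all ranked regions thus also turned with the window. GAGAG was then in 11.8%, against 22.4% and 23.4%, and TAATCC still in 2.94%, against 6.33% and 5.93%. A match is a string of letters in a window and not a shown binding site.

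The threshold and the distances of the rule fell among regions of like strength. No region at a noncoding start reached the lowest score of the thresholded list, 830, without being in it, and 30 of the 34 had the highest possible score of 1000. Outside the list 31 regions at noncoding starts had a signal above 53.4, the lowest of the 34. The 5 strongest of these lay at lncRNA:CR45808 (79.6), asRNA:CR45281 (73.04), lncRNA:CR45537 (72.3), Su(Ste):CR42432 on Y (70.6) and lncRNA:CR44936 (67.3). Just inside 500 bp of the noncoding start were lncRNA:CR44409 (498 bp), the downstream region of lncRNA:CR44619 (489 bp) and lncRNA:CR42657 (470 bp). Just outside it were thresholded regions near lncRNA:CR45618 (506 bp, signal 128), lncRNA:CR44363 (518 bp, 177) and lncRNA:CR32660 (519 bp, 81.2). Just beyond 500 bp from a coding start were the regions near gce, nej and Act5C, at 554, 653 and 662 bp. Just within it, and so left out, were those of lncRNA:CR44365 (498 bp from CG42808, signal 79.7), asRNA:CR46044 (439 bp from Septin2, 63.7) and lncRNA:CR43918 (437 bp from Dp, 83.8).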

How the data were processed

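ChIP-seq regions of 2 replicates of 1 group were used, on dm6 per the labels. Neither label nor file header names a peak caller or aligner. Lists of regions ranked by irreproducible discovery rate (IDR), and thresholded lists, were deposited per replicate and for both together. In each, the score is the authors' scaled IDR, capped at 1000. The signal value is the authors' own, in a unit that is not stated, so regions were compared with each other within a list only. The replicate ratios, means and SDs are the exception. They set values from each replicate's own list side by side, without rescaling. The deposited −log10 IDR value was used only to read the score. The files hold no read counts, so depth is unknown.

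The ranked list used here holds all 1655 thresholded regions, of which 1470 lie on the 7 arms. It also has 16 unnamed columns, which could not be tied to a sample and were not used. Values per replicate came from the region with the longest overlap (at least 1 bp) in that replicate's own ranked list. Genes came from Ensembl release 115, with each mature microRNA record folded into its hairpin gene, and sequence and mature microRNA positions from RefSeq (Release 6), whose arm lengths match. Transcript starts of all isoforms were used. Shares have 95% Wilson intervals. No test was run, since there is 1 group and regions are not replicates. The rule was tested on simulated summits, and the lookup of overlaps on a few made-up intervals. The matching of regions between replicates was not tested apart from that. Python 3.11.15, numpy 2.4.6, pandas 2.3.3 and matplotlib 3.10.9 were used. The text names the 25 strongest thresholded regions, those at microRNAs, each list's leading genes, the 3 highest and lowest replicate ratios, genes with 2 regions, the 3 regions on each side of the distances of the rule, and the 5 strongest outside the list. The weaker thresholded regions outside that rule were named after their values were seen, as were mir-133, mir-92b and mir-124. Members, gene lists and words were chosen with earlier results of these data known. Alternatives were other distances, starts, lists, replicates, windows and overlaps. The biological replicates are separate samples per the labels, with nothing on how many embryos each pools.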

Additional observations from a re-analysis of the deposited data

How the results depend on the processing

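With 1 group, no paired analysis was possible because there is no second group whose samples could share a replicate number. The share of regions at noncoding starts that passed, 1.68%, moved to 1.19% when only the stronger 50% of the thresholded list counted (0.628% of all ranked regions). It was 7.09% among regions with GC under 40%, against 4.30% of all ranked regions there, an alternative chosen after seeing the data. With starts within 200 bp there were 810 regions, 12 of them thresholded at 12 genes, with a median signal of 151. With starts within 1000 bp there were 3849, with 62 thresholded at 61 genes and 2 of them at microRNAs. With no distance kept from coding starts, 53 passed at 52 genes, 2 of them at microRNAs. With only the strongest of overlapping regions kept, 34 of 1587 passed (2.14%), against 1.07% away from starts and 1.57% of all ranked regions. The count at microRNAs was 0 in the conservative list and in the stronger 50% of the list, and 0 to 1 without either replicate. Without either replicate the share was 1.67% to 1.69%, the thresholded regions 29 to 30, and the median signal, on each single replicate's own scale, 67.6 to 82.7. With windows of 100 bp the median GC was 34.6%. With hairpin starts only, also chosen after seeing the data, 34 of 2019 passed. With windows of 100 bp TATAAA was in 38.2%, against 31.0% of all thresholded and 13.1% of all ranked regions, and TCAGT in 35.3%, against 36.3% and 27.8%. TAATTA was then in 14.7%, against 13.9% and 9.10%, and ACAGTG in 20.6%, against 22.2% and 8.31%. In the conservative list TCAGT was in 2.86%, and 0 regions lay in coding sequence in place of 1. Unknown depth limits what a missing region can mean.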
